A study of Mus musculus with 12 samples.

Results

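The antigen presentation and costimulation genes described here are B2m, H2-K1, H2-D1, Tap1, Tap2, Tapbp, Nlrc5, Cd80, Cd274 and Cd74. They were taken by gene name from a table of 13935 rows, and all 10 were found. RNA was sequenced from neutrophils sorted from mouse femur bone marrow by CD11b and Ly6G and then kept for 8 h in RPMI medium with serum. There were 4 groups of 3 libraries: LysMcre Socs3fl/fl cells with 10 ng/ml G-CSF, Socs3fl/fl cells with 10 ng/ml G-CSF, LysMcre Socs3fl/fl cells without it, and Socs3fl/fl cells without it. Every group thus carries the loxP-flanked Socs3 alleles, and the LysMcre Socs3fl/fl groups also carry LysMcre, in which the Lyz2 promoter drives Cre in myeloid cells. The groups with and without LysMcre are called LysMcre-labelled and floxed below. The titles of the 3 LysMcre libraries with G-CSF hold the word untreated and leave out the floxed allele, so their group was read from the description, and the condition and genotype fields name G-CSF and LysMCre Socs3fl/fl. The labels used here name neither the strain nor the animals behind each library, and p-values therefore reflect only library-to-library spread, which may be technical.

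Class I molecules show peptides from inside the cell to CD8 T cells. H2-K1 and H2-D1 encode the heavy chains, B2m encodes the light chain beta-2 microglobulin, Tap1 and Tap2 form the transporter that brings peptides into the endoplasmic reticulum, and Tapbp (tapasin) holds the empty chain at that transporter. Nlrc5 is a transcriptional coactivator of class I genes. Class II molecules show peptides to CD4 T cells, and Cd74 is the invariant chain that guides them. Cd80 (B7-1) is a ligand of CD28 and CTLA-4, and Cd274 (PD-L1) is the ligand of the inhibitory receptor PD-1. G-CSF signals through STAT3, and Socs3 encodes the feedback inhibitor of that signal.

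Reads assigned to the listed genes, recovered from the normalized counts, numbered 19495754 to 26472118 per library. A count of 3 reads equalled 2.57 to 3.54 normalized counts, so all 10 genes lay far above the counting floor. Socs3 was not lower in the LysMcre-labelled libraries. It had 35984 to 38354 normalized counts there with G-CSF, against 18533 to 21391 in floxed libraries with G-CSF, and 252.5 to 313.4 against 201.3 to 247.5 without it; the reads of single exons are not resolved in such a table. Lyz2, the Cre locus, had 507.4 to 636.7 normalized counts in LysMcre-labelled and 44425 to 49035 in floxed libraries with G-CSF, and 5646 to 6602 against 219608 to 226031 without it. All 12 neutrophil markers were in the table, and their sum was 1507000 to 2050300 normalized counts per library. Single markers within this sum differed between groups. With G-CSF, Ltf had group means of 37729 in LysMcre-labelled and 73096 in floxed libraries, and Cxcr2 had 98109 and 74035. Without G-CSF, Ltf had 222970 and 242940, and Cxcr2 had 21774 and 22153. Between genotypes with G-CSF, limma called 2 of the 12 higher and 6 lower, where 36% of all genes passed. Markers of other cells were present at lower levels: the sum over 8 B cell markers was 3326 to 5946, over 5 of 8 dendritic cell markers 773.1 to 1306, over 8 monocyte and macrophage markers 14233 to 23011, and over 6 of 8 T and NK cell markers 175 to 482.8. The dendritic cell markers Zbtb46, Xcr1 and Batf3 and the NK cell markers Ncr1 and Klrb1c have no row in the table used here. In bulk RNA of this kind, fewer cells of a type and less RNA per cell cannot be told apart.

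Per kilobase of exon the 10 genes covered a wide range of levels. H2-D1 was the highest in all 4 groups, at 27050 ± 316 normalized counts per kb in LysMcre-labelled and 26900 ± 2528 in floxed libraries with G-CSF, and 30350 ± 1516 and 29700 ± 896 without it (SD, n = 3 each). B2m came second, at 14560 to 16500 over the group means, and H2-K1 after it, at 4604 to 6948. Tapbp (group means of 1806 to 2026 per kb) and Cd74 (1414 to 2143) were next and exchanged places between groups, with differences smaller than the spread of Cd74. Tap2 (651.5 to 1325) and Tap1 (540.5 to 617.6) followed. Cd274 lay between 59.6 and 264.6 per kb, and Cd80 (34.0 to 92.5) and Nlrc5 (35.0 to 64.1) were the lowest, in an order that differed between groups. Within groups, the coefficient of variation over 3 libraries was 1.15% to 7.00% for Tap2 and 20.2% to 38.2% for Cd74.

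**Figure D1:**
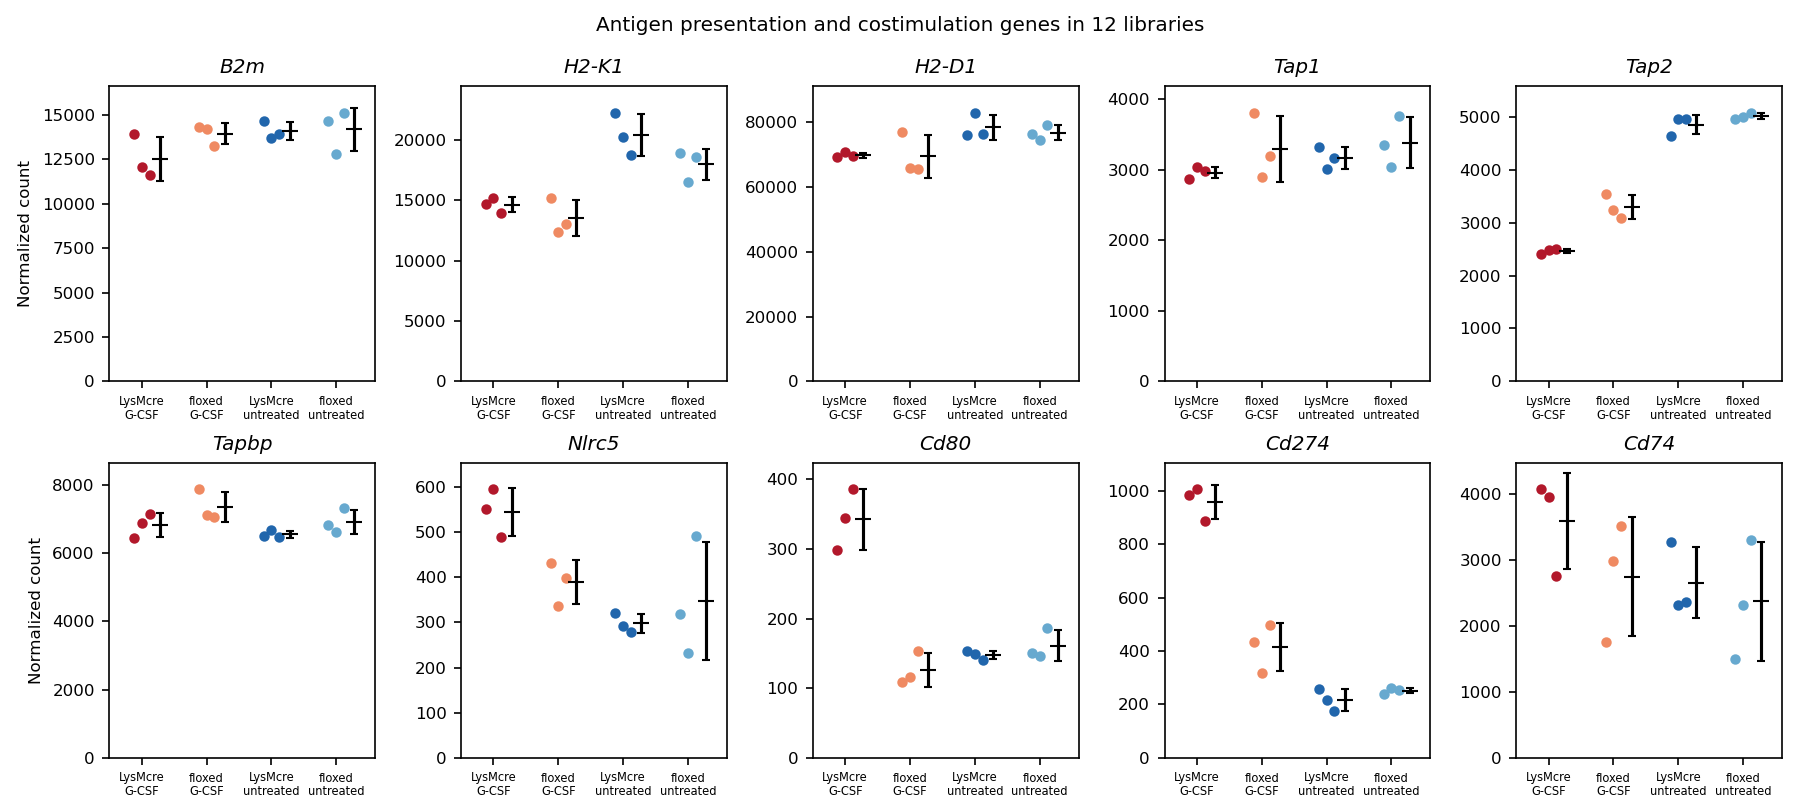
Normalized counts (vertical axes, linear, from 0) of the 10 genes; each point is 1 library and the bar beside it is the group mean with its SD (n = 3). LysMcre-labelled cells given G-CSF have the highest Cd80 and Cd274 and the lowest Tap2. For B2m, Tap1 and Tapbp the groups overlap between genotypes within each condition and between conditions within each genotype.

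The members that differed most between genotypes with G-CSF were Cd80 and Cd274, which encode ligands of costimulatory and inhibitory receptors on T cells. Cd80 (ENSMUSG00000075122.5; mm10 chromosome 16, 38455561 to 38496335, plus strand) had 298.2, 344.4 and 385.4 normalized counts in LysMcre-labelled libraries with G-CSF, against 108.3, 115.6 and 153.5 in floxed libraries with G-CSF. Without G-CSF it had 153.5, 148.7 and 141.1 in LysMcre-labelled libraries and 150.3, 145.6 and 186.3 in floxed libraries. The 3 LysMcre-labelled libraries with G-CSF were thus higher than the other 9, which overlapped. With G-CSF the genotypes differed 2.72-fold (log2 1.45, SE 0.14, limma adjusted p = 1.33e-06). Against untreated cells of the same label, Cd80 rose 2.32-fold with G-CSF in LysMcre-labelled cells (log2 1.20, SE 0.14, adjusted p = 2.39e-06). In floxed cells the log2 difference had the opposite sign (-0.36, SE 0.14) and passed narrowly (limma adjusted p = 0.049), although the groups overlapped. That call was lost in 12 of 24 alternative settings, and its adjusted p ranged from 0.00733 to 0.201 over the 24. Both count tests lost it, as was leaving out LysMcre-labelled G-CSF replicate 2, floxed G-CSF replicate 1 or 2, any of the 3 LysMcre-labelled untreated libraries, or floxed untreated replicate 1 or 3; the log2 value was -0.51 to -0.25 without 1 library. The difference between the G-CSF responses was log2 1.56 (SE 0.20, limma adjusted p = 5.06e-05).

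Cd274 (ENSMUSG00000016496.7; chromosome 19, 29367455 to 29388095, plus strand) had 983.5, 1005 and 886.8 normalized counts in LysMcre-labelled libraries with G-CSF, against 432.2, 316.1 and 496.2 in floxed libraries with G-CSF. Without G-CSF it had 256.6, 214.9 and 176.4 in LysMcre-labelled and 240.9, 260.4 and 254.1 in floxed libraries. The untreated groups overlapped, and every library with G-CSF was above every library without it. Cd274 rose with G-CSF in both genotypes, 4.44-fold in LysMcre-labelled cells (log2 2.16, SE 0.15, limma adjusted p = 4.12e-09) and 1.65-fold in floxed cells (log2 0.69, SE 0.15, adjusted p = 0.00108). Between genotypes with G-CSF it differed 2.31-fold, LysMcre-labelled cells being higher (log2 1.23, SE 0.15, adjusted p = 1.01e-05), and the responses differed by log2 1.47 (SE 0.21, limma adjusted p = 0.000122). Without G-CSF the genotype difference was log2 -0.24, with a 95% interval of -0.55 to 0.08. The ratio of Cd274 to Cd80 within a library, which no scaling of libraries alters, was 2.30 to 3.30 in LysMcre-labelled and 2.73 to 3.99 in floxed libraries with G-CSF. It was 1.25 to 1.67 in LysMcre-labelled and 1.36 to 1.79 in floxed libraries without it. The ratios were chosen after the values were seen and carry no test. An antisense gene, AC119228.1, shares 14.1% of the exon length of Cd274, and whether reads were counted by strand is not given in the sources used here.

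The transporter subunits did not move together. Tap2 (ENSMUSG00000024339.12; chromosome 17, 34203527 to 34216321, plus strand) had 2412, 2477 and 2502 normalized counts in LysMcre-labelled libraries with G-CSF, against 3542, 3243 and 3089 in floxed libraries with G-CSF. Without G-CSF it had 4637, 4962 and 4951 in LysMcre-labelled and 4960, 4997 and 5074 in floxed libraries. No library with G-CSF reached any library without it, and the genotypes separated with G-CSF. Tap2 fell with G-CSF in both genotypes, 1.97-fold in LysMcre-labelled cells (log2 -0.98, SE 0.06, limma adjusted p = 3.55e-10) and 1.52-fold in floxed cells (log2 -0.61, SE 0.06, adjusted p = 1.85e-07). With G-CSF it was 1.34-fold lower in the LysMcre-labelled libraries (log2 -0.42, SE 0.06, adjusted p = 2.34e-05), and the responses differed by -0.37 (SE 0.08, limma adjusted p = 0.00268). Genes on the opposite strand, Gm15821 and Gm20496, share 14.1% and 4.36% of its exon length.

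Tap1 (ENSMUSG00000037321.17; chromosome 17, 34187553 to 34197225, plus strand) had 2872, 3031 and 2976 normalized counts in LysMcre-labelled and 3805, 2895 and 3187 in floxed libraries with G-CSF. Without G-CSF the values were 3325, 3011 and 3172 in LysMcre-labelled and 3343, 3041 and 3762 in floxed libraries. All 4 groups overlapped with at least 1 other, and no difference passed. The log2 difference between genotypes with G-CSF was -0.15 (95% interval -0.34 to 0.05), and the G-CSF response was -0.10 (-0.29 to 0.10) in LysMcre-labelled and -0.04 (-0.23 to 0.15) in floxed cells. The ratio of Tap2 to Tap1 within a library was 0.817 to 0.841 in LysMcre-labelled and 0.931 to 1.12 in floxed libraries with G-CSF, and 1.39 to 1.65 in LysMcre-labelled and 1.35 to 1.64 in floxed libraries without it. Those ranges did not overlap between genotypes with G-CSF, or between libraries with and without G-CSF, and overlapped between genotypes without it.

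Tapbp (ENSMUSG00000024308.15; chromosome 17, 33915899 to 33929292, plus strand) had 6450, 6895 and 7137 normalized counts in LysMcre-labelled and 7867, 7111 and 7070 in floxed libraries with G-CSF. It had 6507, 6669 and 6480 in LysMcre-labelled and 6816, 6609 and 7307 in floxed libraries without it. No comparison passed, with log2 differences of -0.11 between genotypes with G-CSF, 0.06 for G-CSF in LysMcre-labelled cells and 0.09 for G-CSF in floxed cells. When every library was scaled to an equal total, the value in LysMcre-labelled cells turned to -0.20 (limma adjusted p = 0.00116), against a shift of -0.26 in the median of all genes. An antisense gene, Gm19412, shares 24.9% of its exon length.

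Of the class I chains, H2-K1 fell with G-CSF and H2-D1 and B2m did not pass. H2-K1 (ENSMUSG00000061232.16; chromosome 17, 33996017 to 34000347, minus strand) had 14716, 15193 and 13959 normalized counts in LysMcre-labelled libraries with G-CSF and 15201, 12351 and 13024 in floxed libraries with G-CSF. Without G-CSF it had 22239, 20223 and 18775 in LysMcre-labelled and 18879, 16481 and 18570 in floxed libraries. Every library with G-CSF was below every library without it, while the genotypes overlapped in both conditions. H2-K1 fell 1.40-fold in LysMcre-labelled cells (log2 -0.48, SE 0.08, limma adjusted p = 0.000129) and 1.33-fold in floxed cells (log2 -0.41, SE 0.08, adjusted p = 0.000714). The difference of these responses was -0.07, with a 95% interval of -0.32 to 0.19.

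H2-D1 (ENSMUSG00000073411.11; chromosome 17, 35262730 to 35267499, plus strand) had 69115, 70671 and 69478 normalized counts in LysMcre-labelled and 76896, 65808 and 65406 in floxed libraries with G-CSF. Without G-CSF it had 75873, 82793 and 76179 in LysMcre-labelled and 76237, 74488 and 79067 in floxed libraries. The LysMcre-labelled libraries with G-CSF lay below those without it. The G-CSF difference was log2 -0.17 in LysMcre-labelled cells (SE 0.08, limma adjusted p = 0.0713) and -0.15 in floxed cells (SE 0.08, adjusted p = 0.128). It passed in LysMcre-labelled cells in 7 of 24 alternatives, among them both count tests and leaving out floxed G-CSF replicate 1 (limma adjusted p = 0.0266) or 3 (0.0488). In floxed cells it passed in 4 of 24, among them edgeR and leaving out floxed G-CSF replicate 1 (log2 -0.22, limma adjusted p = 0.0134). The ratio of H2-K1 to H2-D1 within a library was 0.201 to 0.215 in LysMcre-labelled and 0.188 to 0.199 in floxed libraries with G-CSF, and 0.244 to 0.293 in LysMcre-labelled and 0.221 to 0.248 in floxed libraries without it. In both genotypes this ratio was lower in each library with G-CSF than in each library without it.

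B2m (ENSMUSG00000060802.8; chromosome 2, 122147686 to 122153083, plus strand) had 13929, 12034 and 11605 normalized counts in LysMcre-labelled and 14333, 14200 and 13242 in floxed libraries with G-CSF. It had 14668, 13687 and 13916 in LysMcre-labelled and 14653, 12809 and 15103 in floxed libraries without it. Its groups overlapped in every comparison. The largest of its log2 differences was -0.17 for G-CSF in LysMcre-labelled cells (SE 0.08, limma adjusted p = 0.0587), which passed in 6 of 24 alternatives. Among these, dropping replicate 1 of the LysMcre-labelled G-CSF group gave a limma adjusted p of 0.0073 and dropping floxed untreated replicate 2 gave 0.0419. Between genotypes with G-CSF the value was -0.16 (adjusted p = 0.126), and -0.24 (limma adjusted p = 0.0207) when replicate 1 of the LysMcre-labelled G-CSF group was dropped. H2-K1 and H2-D1 belong to a family of near-identical genes: 9.63% of the 50-base windows of the H2-K1 transcripts and 12.8% of those of H2-D1 also occur in transcripts of another gene, against none for B2m. The values of both chains are therefore uncertain, by an amount that was not measured.

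The promoters of the 3 class I chains are shown beside that of Cd274, the member with the steepest response, since class I promoters are known to share short elements. Each is the 250 bases before the gene's start in RefSeq (GRCm38.p6), 5′ to 3′ on the gene's strand, and the table held promoters of 7 of the 10 genes, not of Tap2, Nlrc5 and Cd74. Of H2-K1 the table lists 2 starts, and the first is shown. Capitals mark matches, on either strand, of 5 motifs: TGACG, a part of the X2 box; ATTGG, the Y box; GGG and CCC with any 5 bases between them, a kappaB-like palindrome; GAANNGAAA, an interferon response element core; and TTCNNNGAA, a STAT element. The letters were chosen with the sequences in view.
H2-K1 promoter, chr17:34000348-34000597, minus strand: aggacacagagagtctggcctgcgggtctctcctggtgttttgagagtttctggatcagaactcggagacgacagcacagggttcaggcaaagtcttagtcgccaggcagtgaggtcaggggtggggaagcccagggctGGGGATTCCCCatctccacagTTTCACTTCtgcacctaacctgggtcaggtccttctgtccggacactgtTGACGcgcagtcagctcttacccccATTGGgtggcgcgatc
H2-D1 promoter, chr17:35262844-35263093, plus strand: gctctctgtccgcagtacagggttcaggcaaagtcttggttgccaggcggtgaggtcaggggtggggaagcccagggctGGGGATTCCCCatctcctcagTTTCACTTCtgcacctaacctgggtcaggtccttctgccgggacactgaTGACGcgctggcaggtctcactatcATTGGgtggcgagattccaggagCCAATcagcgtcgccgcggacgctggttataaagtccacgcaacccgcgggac
B2m promoter, chr2:122147437-122147686, plus strand: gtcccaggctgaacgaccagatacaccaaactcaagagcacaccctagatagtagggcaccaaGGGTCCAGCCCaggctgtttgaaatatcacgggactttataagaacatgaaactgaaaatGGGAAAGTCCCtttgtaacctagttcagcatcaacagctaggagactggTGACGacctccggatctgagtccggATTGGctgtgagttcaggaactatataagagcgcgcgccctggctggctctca
Cd274 promoter, chr19:29367188-29367437, plus strand: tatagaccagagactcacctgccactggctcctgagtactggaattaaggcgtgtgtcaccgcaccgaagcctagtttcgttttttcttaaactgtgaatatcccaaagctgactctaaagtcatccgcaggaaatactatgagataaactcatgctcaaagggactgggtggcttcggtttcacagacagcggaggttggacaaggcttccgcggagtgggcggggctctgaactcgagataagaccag
No marked matches overlap in these 4 windows. The X2 box part, the Y box and the kappaB-like palindrome occurred in the windows of H2-K1, H2-D1 and B2m, and also in that of Tap1. Among all 32851 promoter windows of that length, 17.8%, 33.8% and 12.2% hold them. GAANNGAAA, which 6.31% of all windows hold, occurred in H2-K1 and H2-D1. The B2m window holds GAAACTGAAA, which has a longer gap between GAA and GAAA and is therefore not marked. The missing mark thus does not show that the B2m window lacks an interferon response element. TTCNNNGAA, held by 7.02%, occurred in none of the 7 windows. None of the 5 motifs occurred in the windows of Cd274 and Cd80, which says only that these letters are not in those 250 bases.

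Nlrc5 (ENSMUSG00000074151.13; chromosome 8, 94434356 to 94527272, plus strand), the class I coactivator, had 550.1, 594.4 and 488.5 normalized counts in LysMcre-labelled libraries with G-CSF, against 432.2, 337.1 and 397.3 in floxed libraries with G-CSF. Without G-CSF it had 321.8, 291.4 and 279.5 in LysMcre-labelled and 318.7, 232.1 and 490.3 in floxed libraries. Floxed untreated replicate 3 stood above the other 5 untreated libraries and above all 3 floxed libraries with G-CSF. Nlrc5 rose 1.83-fold with G-CSF in LysMcre-labelled cells (log2 0.87, SE 0.19, limma adjusted p = 0.000998), a call kept in all 24 alternatives. In floxed cells the log2 difference was 0.22 (SE 0.19, adjusted p = 0.365). Without floxed untreated replicate 3 it was 0.51 (limma adjusted p = 0.00815), and without replicate 2 of that group it was -0.03. With G-CSF the genotypes did not overlap, and their log2 difference of 0.49 (SE 0.19) had a limma adjusted p of 0.0606. It passed in 6 of 24 alternatives: edgeR (0.0472), DESeq2 (0.0305), quantile normalization (0.0491), only the groups compared (0.00462), and without floxed untreated replicate 2 (0.0143) or 3 (0.00684). The responses differed by log2 0.64 (SE 0.27, limma adjusted p = 0.109), which does not pass, so a difference of the Nlrc5 response between genotypes was not shown; DESeq2 and the fit without floxed untreated replicate 2 called it. That same floxed untreated replicate 3 was also the highest untreated library for H2-T24 (3451 normalized counts against 1985 to 2589 in the other 5) and H2-T23 (7682 against 5629 to 6543); the part of this library in the Nlrc5 result is given by the values without it.

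Cd74 (ENSMUSG00000024610.15, chromosome 18), the invariant chain of class II, had 4074, 3962 and 2760 normalized counts in LysMcre-labelled and 1752, 2984 and 3518 in floxed libraries with G-CSF. It had 3282, 2327 and 2371 in LysMcre-labelled and 1499, 2314 and 3309 in floxed libraries without it. All 4 groups overlapped, and the spread within groups was wide. In both genotypes each library with G-CSF was above the untreated library of the same replicate number. Whether equal numbers are pairs is not given in the labels used here, and a paired fit was not run. The log2 differences were 0.43 (95% interval -0.15 to 1.00) between genotypes with G-CSF, 0.22 (-0.36 to 0.80) without it, 0.43 (-0.15 to 1.01) for G-CSF in LysMcre-labelled cells and 0.23 (-0.35 to 0.81) in floxed cells. None passed in limma, and of 24 alternatives only the fit to the groups compared called the response of LysMcre-labelled cells (adjusted p = 0.032).

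The class II chains varied between libraries with Cd74. The summed normalized count of H2-Aa, H2-Ab1 and H2-Eb1, named after their values were seen, was 3897, 3707 and 2343 in LysMcre-labelled and 1441, 2722 and 3122 in floxed libraries with G-CSF, and 2765, 1808 and 1916 in LysMcre-labelled and 1226, 1932 and 2825 in floxed libraries without it. Cd74 divided by this sum lay between 1.05 and 1.29 in all 12 libraries, while Cd74 itself ranged from 1499 to 4074. The sum over 8 B cell markers was 3326, 4208 and 4088 in LysMcre-labelled and 3582, 4215 and 4727 in floxed libraries with G-CSF. It was 3921, 4588 and 5240 in LysMcre-labelled and 3616, 4429 and 5946 in floxed libraries without it. Cd74 divided by the B cell sum ranged from 0.414 to 1.22. In both floxed groups Cd74 followed the order of the B cell sums. In LysMcre-labelled libraries this did not hold: replicate 1 had the lowest B cell sum and the most Cd74 in both conditions. Of the 5 dendritic cell markers measured, the summed level was 914.7 to 1033 in LysMcre-labelled and 773.1 to 883.2 in floxed libraries with G-CSF, and 1117 to 1306 in LysMcre-labelled and 1030 to 1113 in floxed libraries without it. These markers did not move together. With G-CSF the mean of Itgax was 452.6 in LysMcre-labelled against 312.4 in floxed libraries, and that of Flt3 184.3 against 168.1. Siglech (267 against 281), Clec9a (21.4 against 37.6) and Cd209a (32.8 against 38.8) went the other way. No dendritic or B cell marker in the table was at 0 in every library of a group. The part of these cells in the Cd74 level was not tested.

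**Figure D2:**
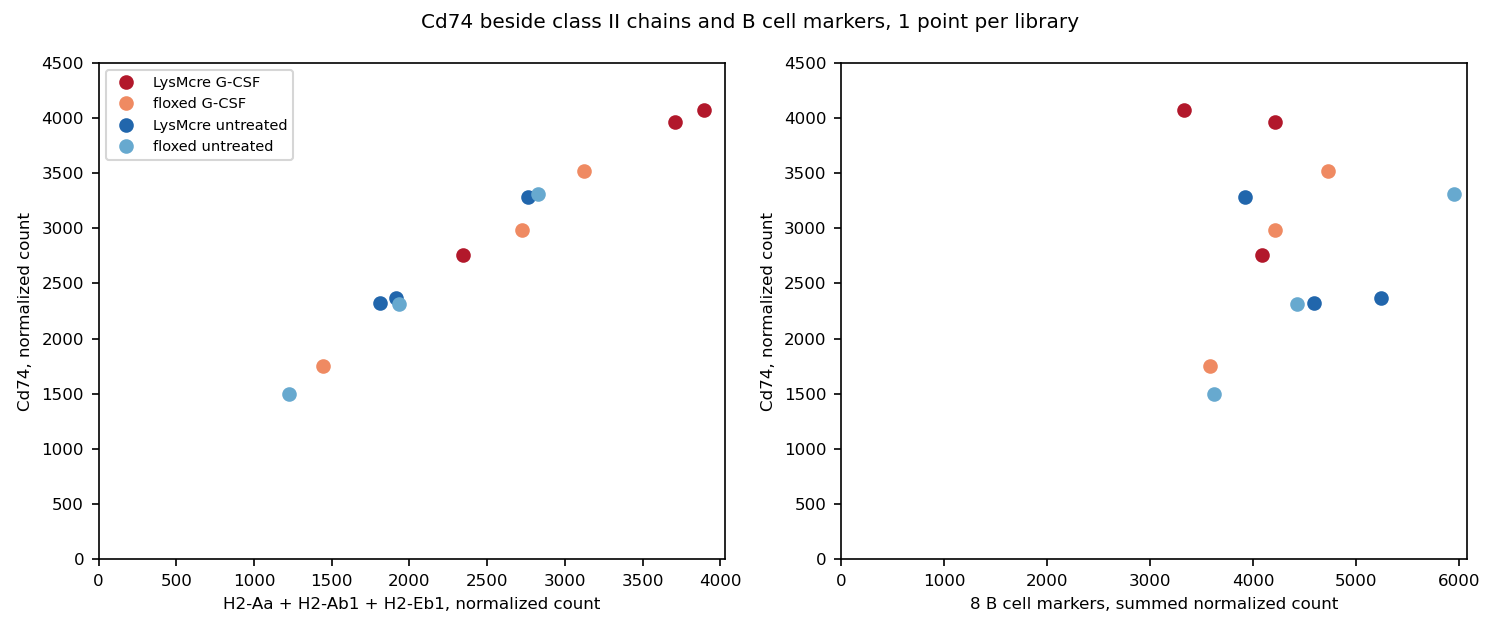
Cd74 (vertical axes, normalized count) against the summed normalized count of H2-Aa, H2-Ab1 and H2-Eb1 (left) and of 8 B cell markers (right), 1 point per library in 4 groups. The 12 libraries lie along one line on the left, where Cd74 is 1.05 to 1.29 times the chain sum, and are scattered on the right, where the ratio is 0.414 to 1.22.

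The share of members called was near that of all genes in each comparison. Between genotypes with G-CSF, 3 of 10 members passed limma at an adjusted p of 0.05, Cd80 and Cd274 higher and Tap2 lower in LysMcre-labelled libraries, while 36% of the 13915 genes tested passed, 17.1% higher and 18.9% lower. Of all calls 47.5% were higher, and 28.2% when every library was scaled to an equal total, which moved the median of all genes to -0.13; B2m (-0.28), Tap1 (-0.27) and Tapbp (-0.23) were then also called lower. The groups did not overlap for 4 members, Tap2, Nlrc5, Cd80 and Cd274, and for 45.5% of all genes. The members' median log2 difference was 0.07, against -0.01 for all genes. Without G-CSF 0 of 10 members passed in limma, edgeR or DESeq2, against a limma background of 0.115% of all genes, 0.0647% higher and 0.0503% lower; the groups did not overlap for 0 members and for 9.34% of all genes; 1 member, H2-K1 (log2 0.18, 95% interval 0.004 to 0.36), had an unadjusted p under 0.05. With G-CSF in LysMcre-labelled cells 3 members rose (Nlrc5, Cd80, Cd274) and 2 fell (H2-K1, Tap2), where 62.6% of all genes passed, 31.1% higher and 31.6% lower. The groups did not overlap for 6 members and for 67.6% of all genes; with equal totals, whose median of all genes was -0.26, B2m (-0.44), H2-D1 (-0.43), Tap1 (-0.36) and Tapbp (-0.20) were also called lower. In floxed cells Cd274 rose and H2-K1, Tap2 and Cd80 fell, where 48.8% of all genes passed, 24.1% higher and 24.6% lower, and the groups did not overlap for 3 members and for 56% of all genes. The Cd80 groups overlapped, and its call (limma adjusted p = 0.049) was lost in 12 of 24 alternatives. The responses of Cd80, Cd274 and Tap2 differed between genotypes, 3 of 10 members, where 22.4% of all genes passed, 10.9% higher and 11.5% lower; with equal totals B2m (-0.32) and Tapbp (-0.20) passed too. With equal totals the share of higher calls was 31.2% for G-CSF in LysMcre-labelled cells (49.6% in the main scaling), 38.5% in floxed cells (49.5%) and 23% for the difference of responses (48.6%). The 2 comparisons of G-CSF share no libraries, but each shares libraries with the genotype comparisons. Fold values are ratios of group means of normalized counts, and log2 differences are on the log2(normalized count + 1) scale, which understates changes of low genes.

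**Figure D3:**
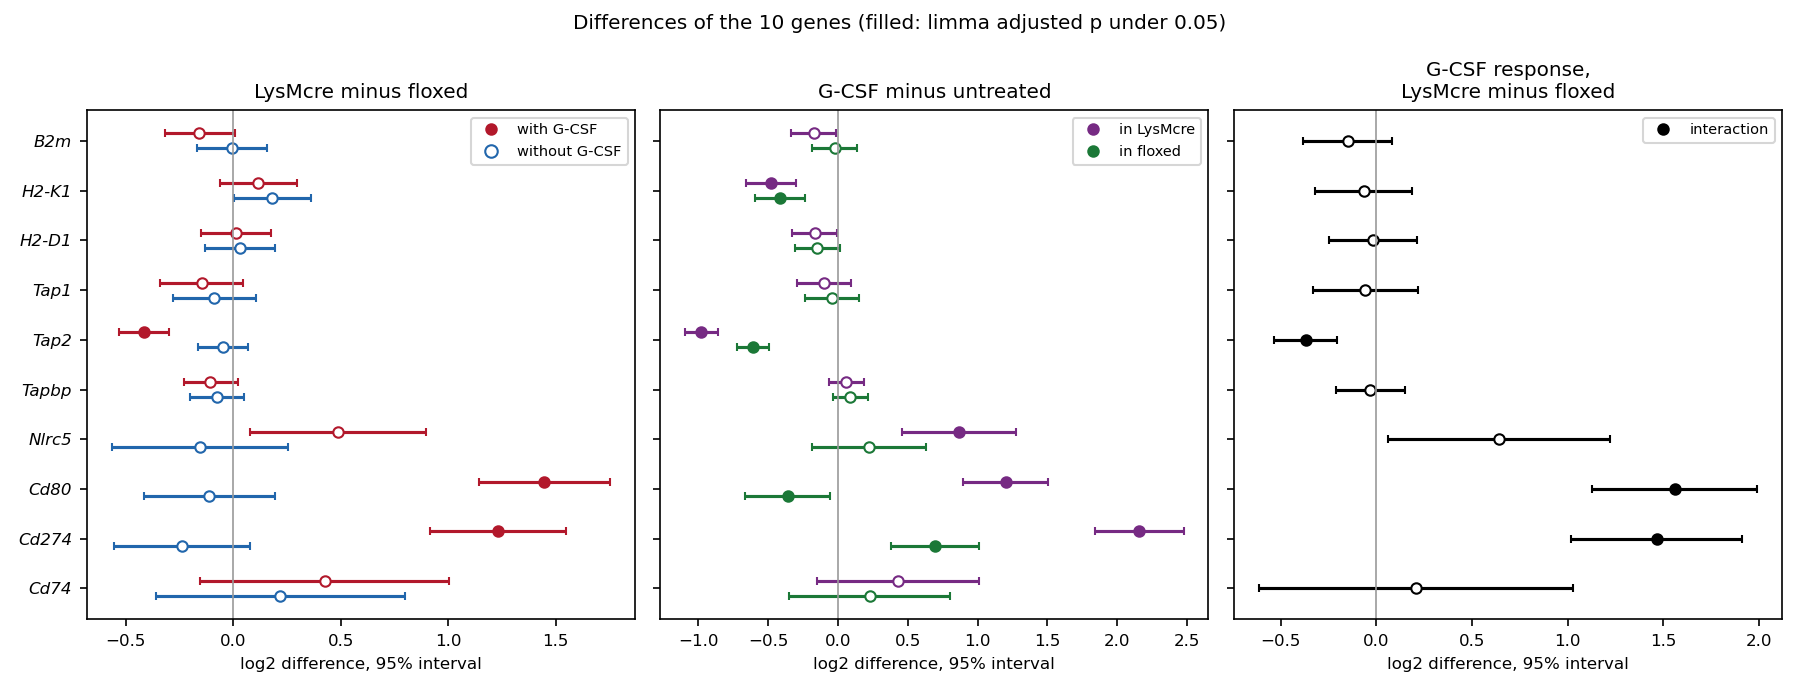
log2 differences (horizontal axes) with 95% intervals for LysMcre-labelled minus floxed libraries, for G-CSF minus untreated libraries, and for the difference of the G-CSF responses; filled points have a limma adjusted p under 0.05. Cd80 and Cd274 lie at 1.45 and 1.23 between genotypes with G-CSF and at -0.11 and -0.24 without it, and Tap2 lies below 0 in both G-CSF comparisons.

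The rest of the pathway was read in 5 lists. Of 12 class I chain genes other than the members, 3 were higher and 4 lower in LysMcre-labelled than floxed libraries with G-CSF (median -0.02), and with equal totals 0 were higher and 4 lower. H2-T24 had 1244 ± 47.7 against 2353 ± 306 normalized counts (log2 -0.91, SE 0.12, limma adjusted p = 2.97e-05), and H2-T23, which encodes Qa-1, the ligand of the NKG2A receptor, had 4763 ± 165 against 7081 ± 753 (SD, n = 3 each; log2 -0.57, SE 0.08, limma adjusted p = 6.4e-05). H2-K2 (-0.36) was lower and H2-Q7 (0.40) higher, and each lost its call in 6 of 24 alternatives. The list's 7 calls became 4 without LysMcre-labelled G-CSF replicate 1, 2 without replicate 2 of that group, 3 without floxed G-CSF replicate 2 and 4 without floxed G-CSF replicate 3. Between genotypes without G-CSF none of the 12 passed in limma, but 4 had an unadjusted limma p under 0.05. All 4 had the same sign as with G-CSF. H2-Q7 (log2 0.56) and H2-Q6 (0.42, against 0.35 with G-CSF) were higher, without overlap of the groups. H2-T24 (-0.37) and H2-T23 (-0.20) were lower, with overlap. H2-K2 was at -0.05 without G-CSF. The G-CSF response of H2-Q7 was not shown to differ between genotypes (log2 -0.17, limma adjusted p = 0.59). With G-CSF, 2 of these 12 rose and 7 fell in LysMcre-labelled cells (median -0.30), and 1 rose and 4 fell in floxed cells (median -0.17); with equal totals the counts were 1 and 9, and 1 and 6. H2-Q10 rose in both (log2 1.52 in LysMcre-labelled and 1.45 in floxed cells), while H2-K2 (-0.90 and -0.59) and Fcgrt, the neonatal Fc receptor (-1.04 and -0.76), fell in both. H2-M3 also fell in both (-0.44 and -0.34), the floxed value with a call lost without floxed G-CSF replicate 1 or floxed untreated replicate 1. H2-T24 fell in LysMcre-labelled cells (-0.78) and was at -0.24 in floxed cells (limma adjusted p = 0.128). The responses of H2-T24 (-0.55) and H2-T23 (-0.37) differed between genotypes, and each lost that call in 8 of 23 alternatives.

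Of 15 genes of peptide supply and loading, 4 were higher and 3 lower between genotypes with G-CSF (median 0.13), and with equal totals 1 was higher and 5 lower. The inducible immunoproteasome subunits Psmb9 and Psmb8, which lie beside Tap1 and Tap2, were lower. Psmb9 had 793.1 ± 19.2 against 1306 ± 167 normalized counts (SD, n = 3 each; log2 -0.71, SE 0.08, limma adjusted p = 3.7e-06), and Psmb8 was at log2 -0.37. Tapbpl, the tapasin-related peptide editor, was at -0.35, and the chaperone Canx was higher (0.42). Exons of Psmb9 and Tap1 overlap on opposite strands over 3.87% of the Tap1 exon length. With G-CSF, 9 of the 15 rose and 3 fell in LysMcre-labelled cells (median 0.42) and 7 rose and 1 fell in floxed cells (median 0.16); with equal totals the counts were 7 and 5, and 5 and 2. The aminopeptidases Lnpep (1.14 and 0.86), Npepps (1.12 and 0.88) and Lap3 (1.17 and 1.09) rose in both, and Psmb9 fell in both (-1.14 and -0.50). The response of Psmb9 differed between genotypes (log2 -0.64, SE 0.11, limma adjusted p = 0.000542), as did those of Psmb8 (-0.35), Canx (0.43) and Lnpep (0.27); Canx and Lnpep lost that call with equal totals and quantile normalization, Psmb8 with a prior without a trend, and Lnpep in 9 of 23 alternatives.

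Of 14 measured class II genes, 2 were higher between genotypes with G-CSF and none lower in limma (median 0.17), and 1 was higher and 1 lower with equal totals. Both are lysosomal proteases that are not specific to class II: Ctsl, cathepsin L, had 4795 ± 144 against 1709 ± 100 normalized counts (SD, n = 3 each; log2 1.49, SE 0.10, limma adjusted p = 3.77e-08), and Lgmn, legumain, was at 0.73, a call lost in 7 of 24 alternatives, including the fits that drop replicate 1 or 2 of either genotype's G-CSF group, each of which leaves 1 call in the list. With G-CSF 5 of the 14 rose and 1 fell in LysMcre-labelled cells and 4 rose and 1 fell in floxed cells; with equal totals the counts were 3 and 3, and 3 and 1. Ctsl (3.42 and 2.04) and the protease cathepsin S, Ctss (1.09 and 1.02), rose in both, H2-DMb2, a subunit of the peptide exchanger, fell in both (-1.37 and -1.22), and Sppl2a, which cleaves Cd74, rose in both (0.46 and 0.57). Lgmn rose in LysMcre-labelled cells (0.81), a call lost with equal totals and without LysMcre-labelled G-CSF replicate 1, and was at 0.27 in floxed cells (limma adjusted p = 0.421); its responses were not shown to differ (log2 0.55, limma adjusted p = 0.341). Ctsl was the only one whose response differed between genotypes (log2 1.38, SE 0.15, limma adjusted p = 7.7e-06).

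Of 16 measured costimulation and checkpoint genes other than the members, 7 were higher and 1 lower between genotypes with G-CSF (median 0.61, against -0.01 for all genes), and 5 and 1 with equal totals. Tnfsf9, the 4-1BB ligand, had 883, 969.5 and 1119 normalized counts in LysMcre-labelled and 317.4, 352.8 and 286.2 in floxed libraries with G-CSF, and 3.70 to 7.70 in the 6 libraries without it, near the level of 3 reads. Its genotype difference with G-CSF was log2 1.63 (SE 0.21, limma adjusted p = 1.77e-05). Tnfsf14 (LIGHT), a ligand of HVEM, had 14779 ± 923 against 7465 ± 744 normalized counts (log2 0.99, SE 0.08). Cd47, the signal that restrains phagocytosis, had 21426 ± 1610 against 12622 ± 591 (SD, n = 3 each; log2 0.76, SE 0.07), and the adhesion ligand Icam1 was at log2 0.83 (SE 0.15). With G-CSF 10 of the 16 rose and 3 fell in LysMcre-labelled cells, and 8 rose and 3 fell in floxed cells; with equal totals the counts were 7 and 4 in both. The receptor Cd244 had 5570 ± 160 normalized counts in LysMcre-labelled cells with G-CSF, against 144.7 ± 22.03 in LysMcre-labelled cells without it, and 3468 ± 42.5 in floxed cells with it, against 94.7 ± 24.5 in floxed cells without it (SD, n = 3 each; log2 5.27 and 5.21). Nectin2 rose in both (3.30 and 2.18) and Tnfsf13b (BAFF), a B cell survival factor, fell in both (-3.16 and -3.32). The responses of Tnfsf9 (log2 1.88), Tnfsf14 (0.93), Cd47 (0.87) and Icam1 (0.87) differed between genotypes. Tnfsf4, Cd70, Cd276 and Vtcn1 have no row in the table used here.

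Of 18 transcription factor genes that act on this pathway, 9 were higher and 3 lower between genotypes with G-CSF (median 0.21), and 7 and 5 with equal totals. Nfyb, a subunit of the Y box factor, had 1559 ± 121 against 874.7 ± 36.5 normalized counts (SD, n = 3 each; log2 0.83, SE 0.07, limma adjusted p = 3e-07). The kappaB subunits Nfkb1 (0.63) and Relb (0.52) were higher and Rfxank, a subunit of the X box factor, was lower (-0.63). With G-CSF 10 rose and 4 fell in LysMcre-labelled cells and 9 rose and 4 fell in floxed cells, and with equal totals 9 and 7, and 9 and 4. Stat3 (1.96 and 1.52), Stat2 (1.63 and 1.21), Relb (1.64 and 0.98) and Nfkb2 (1.53 and 0.94) rose in both. The responses of Nfyb (0.83), Nfkb1 (0.68), Relb (0.65) and Rfxank (-0.63) differed between genotypes. Without G-CSF none of the genes of the 5 lists passed in limma or edgeR between genotypes; DESeq2 called 1 class I chain gene and 1 costimulation gene, and 4 class I chain, 1 costimulation and 1 transcription factor gene had an unadjusted limma p under 0.05.

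**Figure D4:**
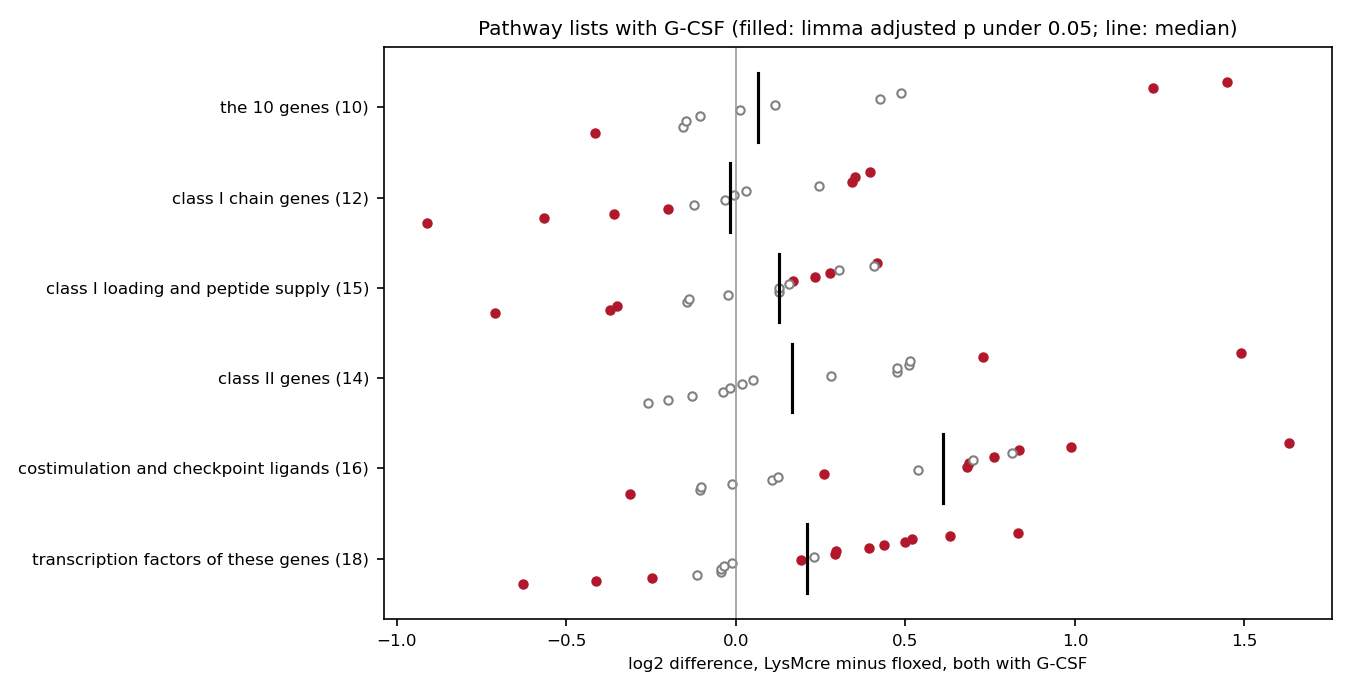
log2 difference of LysMcre-labelled minus floxed libraries with G-CSF (horizontal axis) for the 10 genes and the 5 pathway lists, 1 point per gene, with the number of genes in brackets; filled points have a limma adjusted p under 0.05 and the line is the list's median. The costimulation and checkpoint list has the highest median, 0.61, and the class I chain list the lowest, -0.02.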

How the data were processed

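Expression values of 12 libraries in 4 groups of 3 were analysed. The authors deposited normalized counts (unit: signal), each library's gene counts over a single size factor. That was read from the values: 100% were whole multiples of their library's step at a tolerance of 0.01 read, and steps equalled median-of-ratios factors within 5.06e-11. Per the submitters' processing notes, the build was mm10; which aligner, counter, gene annotation or strandedness they used is not given in the sources used here. The table had 2 columns without a sample or values, and 17 gene names had become dates, so March1 was not used.

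Log2(value + 1) of rows with a mean of at least 10 (13915 rows; 20 left out) was fitted in limma 3.58.1 (R 4.3.3) with all 4 groups, a trended prior and no block, with two-sided p-values and Benjamini-Hochberg adjustment over all rows at 0.05. Count tests on recovered reads (edgeR 4.0.16, DESeq2 1.42.0) and 10 other settings, plus leaving out each of 12 libraries, were alternatives; the same settings were applied to pathway lists after seeing the data. The limma script was tested on simulated data. Replicates differed by more than counting noise (3.47 to 12.3 chi-square units per row), and none was merged. Same-numbered libraries of different groups had correlated deviations of -0.178 to 0.321. Between treatments of floxed cells the values were 0.321, 0.199 and 0.061, against -0.282 to 0.152 for unlike numbers. Between treatments of LysMcre-labelled cells they were 0.214, -0.032 and 0.03, against -0.179 to 0.163. The labels name no pairs, and the numbers were not taken as pairs. Pairing within a genotype was not fitted, so its absence was not shown. The design, written for values that are not counts, was kept.

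The members and lists were chosen with earlier results of these data known. All members are named, and of each pathway list up to 4 genes per comparison with the largest absolute log2 difference among those past 0.05. Positions, exon lengths and transcripts come from GENCODE mouse M21 on the same build.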

Additional observations from a re-analysis of the deposited data

Results flagged for a closer look

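The G-CSF response of 3 of the 10 genes differed between genotypes by the interaction test in limma, where 22.4% of all genes passed. Cd80 differed by log2 1.56 (SE 0.20, limma adjusted p = 5.06e-05), with a response of 1.20 in LysMcre-labelled and -0.36 in floxed cells. Cd274 differed by 1.47 on the log2 scale (value 1.465, SE 0.21, limma adjusted p = 0.000122), with responses of 2.16 and 0.69. Tap2 differed by log2 -0.37 (SE 0.08, limma adjusted p = 0.00268), with responses of -0.98 and -0.61. All 3 kept this call in each of 23 alternatives.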

How the results depend on the processing

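Of 1190 values of the 10 genes under alternatives, 1101 kept their direction and their side of the threshold, 12 lost a call, 39 gained one and 38 changed sign; of 1735 values of named pathway genes, 51 lost a call and 0 changed sign. The members called between genotypes with G-CSF became 6 under both equal totals and quantile normalization, those for G-CSF in LysMcre-labelled cells 9 under both, and those for the difference of responses 5 under equal totals; equal totals shift all genes, and the cause of the quantile counts was not tested. Genes called between genotypes without G-CSF numbered 16 in limma, 9 under a prior without a trend, 28 in DESeq2, and 9 to 21 with 1 library left out, the lowest without floxed untreated replicate 1 and 10 without LysMcre-labelled untreated replicate 1; the cause was not tested.

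Each value that changed sign had not been called as reported above. Under equal totals and quantile normalization these were, between genotypes with G-CSF, H2-K1 (-0.002 and -0.087) and H2-D1 (-0.107 and -0.104), between genotypes without it B2m (0.043 and 0.042), and for Tapbp G-CSF in floxed cells (-0.004 and -0.084) and in LysMcre-labelled cells (-0.203 and -0.253, both then called); Tap2 between genotypes without G-CSF was 0.002 under equal totals. With 1 library left out, H2-D1 ranged from -0.028 to 0.088 between genotypes with G-CSF. Without G-CSF the ranges were -0.079 to 0.04 for B2m, -0.01 to 0.054 for H2-D1, -0.411 to 0.127 for Nlrc5 and -0.075 to 0.496 for Cd74. For G-CSF in floxed cells they were -0.096 to 0.023 for B2m, -0.149 to 0.048 for Tap1, -0.031 to 0.507 for Nlrc5 and -0.068 to 0.522 for Cd74. For the difference of responses they were -0.128 to 0.022 for H2-K1, -0.059 to 0.058 for H2-D1, -0.145 to 0.052 for Tap1, -0.071 to 0.02 for Tapbp and -0.09 to 0.501 for Cd74.

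With the replicate number as a block, 4892, 16, 6673, 8692 and 2967 genes were called between genotypes with and without G-CSF, for G-CSF in floxed and in LysMcre-labelled cells, and for the difference of responses, against 5013, 16, 6784, 8717 and 3112 without it. This block is shared by all 4 groups, so pairs within a genotype were not fitted. The block added a call for B2m in LysMcre-labelled cells (limma adjusted p = 0.0469) and made 4 of the class II calls between genotypes with G-CSF, against 2. Cd80 rested on the fewest reads, 100 to 359 per library, so counting error adds to its spread; the 3 libraries per group limit the precision for all 10 genes.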
